A study of Mus musculus with 60 samples.

Results

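Hippocampal RNA of Adgrl3 knockout mice (KO; genotype Adgrl3 -/-) was compared with that of wild-type mice (WT; Adgrl3 +/+). The comparison took the 10 KO and the 10 WT hippocampal libraries, 20 of the 60 libraries in the series, as named in the sample titles, and kept the genes of chromosome 5, where Adgrl3 lies, apart from the rest of the genome. Both genotypes, 12 mice of each per the labels' protocols, were taken at postnatal days 65 to 76, the brains were frozen, and hippocampus, prefrontal cortex and striatum were dissected and homogenised. Each hippocampal library therefore holds RNA of all cell types of the region, and fewer cells of a type cannot be told apart from less RNA per cell. The sources used here do not give the strain, the sex, the litters, the altered part of Adgrl3 or a sequencing batch.

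The product of Adgrl3 is latrophilin-3, an adhesion receptor coupled to G proteins on the surface of neurons that binds teneurins and FLRT proteins on the facing cell and takes part in the formation of excitatory synapses. In the hippocampus, latrophilins act at the dendrites of pyramidal neurons. Genes close to an altered locus are inherited together with it, and the genes of its chromosome are therefore described apart from the others.

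The KO libraries held 43319108 to 49365511 counted reads and the WT libraries 38985577 to 50641041. Mitochondrial transcripts took 5.81% to 6.86% of the counts in KO and 5.66% to 6.99% in WT. The tissue label was checked against markers, on CPM (counts per common library size, scaled here with TMM over all 60 libraries). Prox1, the transcription factor of dentate granule cells, averaged 104.7 CPM in WT hippocampus, 9.71 CPM in WT prefrontal cortex and 23.8 CPM in WT striatum. C1ql2, a synaptic organiser of the granule cells' mossy fibres, averaged 70.3, 0.950 and 1.25 CPM in the same order, and the striatal dopamine receptor gene Drd2 4.61, 1.27 and 196.7 CPM. The 4 Y-linked genes summed to at least 110.4 CPM, scaled over the 20 hippocampal libraries alone, in each of those libraries.

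A single WT library stood apart along part of chromosome 5, and results that rest on it are given with and without it. On CPM scaled over the 20 hippocampal libraries, WT replicate 5 had Adgrl3 at 120.8 CPM. That was within the range of the other WT libraries (119.1 to 136.2 CPM) and far above the KO libraries (31.9 to 40.6 CPM). The next counts are on CPM scaled over all 60 libraries. Cox18 to Hspb8 lie on the far side of Adgrl3, and 14 genes passed the test there. WT replicate 5 was outside the range of the other 9 WT libraries at 13 of them. It was nearer to the KO mean than to their mean at 12, and inside the KO range at 9. At the 4 genes from Ociad1 to Adamts3, Adgrl3 among them, it was nearer to the KO mean at 0. In prefrontal cortex and in striatum the library of the same number was nearer to the KO mean at 12 of the 14, and at 0 and 1 of the 4. The 12 were not the same genes as in hippocampus. Cox18 was nearer to the KO mean in hippocampus alone, and Cdkl2 in the other regions alone. In both other regions Cox18 had 10.7 CPM in that library. The other WT libraries there reached 10.1 and 9.34 CPM, and the KO libraries began at 14.8 and 12.6 CPM. No label says that equal replicate numbers in different regions mark the same mouse. In 20 further fits, 1 library each was left out. That library was then placed between the genotype means at the chromosome 5 genes called without it, Adgrl3 left out. These positions are on CPM scaled over the 20 hippocampal libraries. WT replicate 5 lay nearer the other genotype at 16 of 18 such genes, the other WT libraries at 0 to 3 of 11 to 16 and the KO libraries at 0 to 6 of 11 to 19. The gene set differed between libraries. A gene called only once a library is left out tends to be one where that library lay toward the other genotype. Scarb2, Ccng2, Crlf2 and Nos1 entered for WT replicate 5 in this way. These counts are therefore partly set by the selection and are no separate support.

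Adgrl3 itself fell to 27.8% of the WT level in KO hippocampus. The gene (ENSMUSG00000037605.16) spans chr5:81020138-81825133 of GRCm38 on the plus strand. Its level ran from 31.9 to 40.6 CPM in KO, with a median of 36.7 CPM, and from 119.1 to 136.2 CPM in WT, with a median of 130.6 CPM (CPM here and below are TMM-scaled over the 20 hippocampal libraries). The groups did not overlap. The means were 35.99 ± 3.13 and 129.3 ± 5.82 CPM (SD, n = 10 per group), a log2 difference of -1.84 ± 0.04 (SE; KO minus WT, as are the rises and falls below) with an adjusted p of 2.54e-18 in edgeR's quasi-likelihood test. A two-sided permutation test of the mean log2 level gave p = 2e-05, the smallest that 100000 resamples can give. The count runs over the whole gene, introns included, and does not show which part of it the remaining reads cover.

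Among the 15581 genes tested, 20 passed the Benjamini-Hochberg threshold of 0.05 (0.128%), 9 higher (0.0578%) and 11 lower (0.0706%) in KO (edgeR). On chromosome 5 lay 18 of them, out of 949 tested (1.90%), and 7 of these rose (0.738%) and 11 fell (1.16%). Elsewhere 2 of 14632 passed (0.0137%), both higher. At an unadjusted p under 0.05 the shares were 8.14% of all genes (4.74% higher and 3.4% lower in KO), 15.8% on chromosome 5 and 7.65% elsewhere. Each of the other 19 chromosomes, X included and Y left out, had between 4.28% and 9.49%. Of the 11 genes tested on Y and the 13 of the mitochondrial genome, 0 reached that p. The KO and WT libraries did not overlap for 5 genes (0.0321%), which were Adgrl3, Adamts3, Cox18, Mthfd2l and Cdkl2, all on chromosome 5. Without WT replicate 5 they did not overlap for 14 genes (0.0899%). The test called 21 genes without that library, 19 of them on chromosome 5, and 16 of the 20 were among them.

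The called genes of chromosome 5 spread over 43.1 Mb, from Ociad1 to Hspb8, with 2 before Adgrl3 and 15 after it. No other tested gene lay within 2 Mb of Adgrl3. The stretch from 90 to 100 Mb held 8 of the 18 called genes among 41 tested, and 43.9% of its genes had an unadjusted p under 0.05. In the 10 Mb that hold Adgrl3 the share was 4 of 13 genes (30.8%), with Adgrl3 itself among the 4. In the next 2 stretches after 100 Mb it was 24.7% and 26.6%, and from 70 to 80 Mb it was 9 of 45 genes. It was 18.4% from 60 to 70 Mb and 16.3% from 120 to 130 Mb. It was 2 of 10 genes from 150 to 160 Mb, and between 0 and 60 Mb it was at most 12.5%. The scatter of differences by distance from Adgrl3 shows the calls in both directions among many genes near 0, and the median absolute log2 difference was 0.13 from 90 to 100 Mb against 0.04 over all genes tested.

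**Figure D1:**
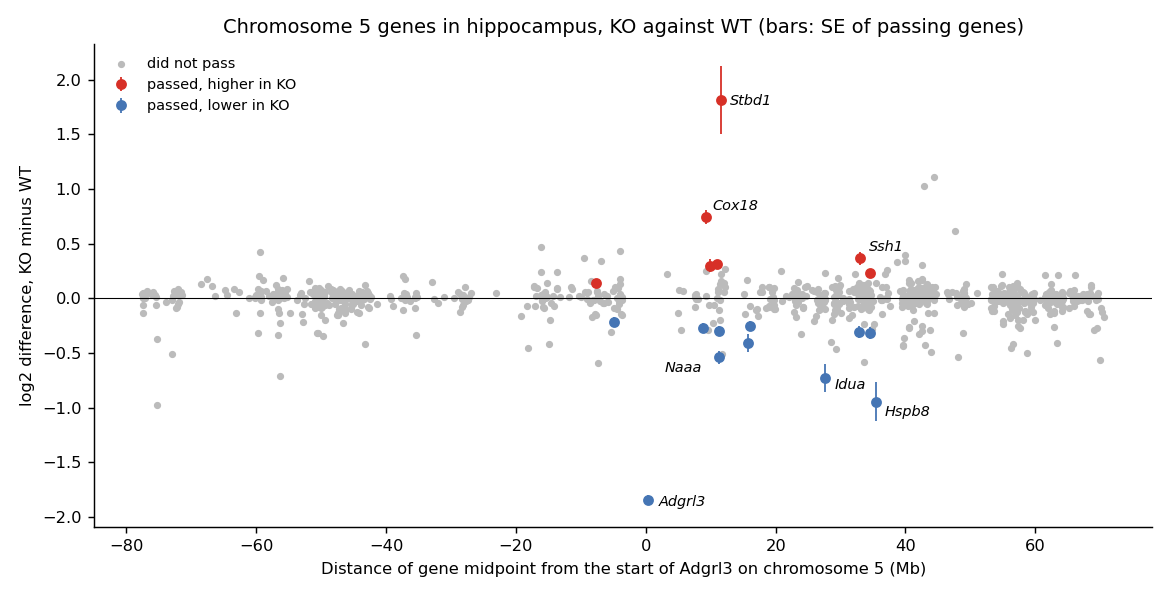
Log2 difference (KO minus WT) of each of the 949 tested chromosome 5 genes in hippocampus, by the distance in Mb of the gene's midpoint from the start of Adgrl3. Coloured points passed edgeR's test (red higher, blue lower in KO, bars SE); the 17 besides Adgrl3 lie in a 43.1 Mb span and most follow Adgrl3.

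Genes of energy and intermediary metabolism included the 2 with the greatest rise. Stbd1 (chr5:92603041-92606579, plus strand) encodes a protein that binds glycogen and tethers it to membranes. It ran from 5.87 to 9.53 CPM in KO (median 6.76 CPM) and from 0.798 to 1.78 CPM in 9 WT libraries, with WT replicate 5 at 7.89 CPM. The groups thus overlapped through that library alone. The log2 difference was 1.81 ± 0.31 (edgeR adjusted p = 0.0148) with it and 2.35 ± 0.12 (6.01e-11) without it. Cox18 (chr5:90214724-90224001, minus strand), whose product inserts a subunit of cytochrome oxidase into the inner mitochondrial membrane, ran from 14.8 to 17.9 CPM in KO and from 8.91 to 9.80 CPM in 9 WT libraries. WT replicate 5 had 14.1 CPM, between the groups. Cox18 rose by a log2 difference of 0.74 ± 0.07 (edgeR adjusted p = 9.29e-07), and by 0.81 ± 0.04 without that library. Mthfd2l, a folate enzyme of mitochondria, rose by 0.30 ± 0.06 (edgeR adjusted p = 0.0440), from 4.78 to 6.05 CPM in WT and 6.11 to 8.23 CPM in KO. Its adjusted p was 0.0633 without WT replicate 5, which had 5.64 CPM, a level like that of the other WT libraries. Ociad1, an endosomal and mitochondrial protein gene, rose by 0.14 ± 0.03 (0.0385; 0.0631 without that library), and Srd5a3, which makes dolichol for protein glycosylation, fell by 0.22 ± 0.04 (0.0463; 0.0633 without it).

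Naaa and Idua, which encode lysosomal enzymes, and the chaperone gene Hspb8 fell. Naaa (chr5:92257659-92278170, minus strand) encodes the lysosomal amidase that breaks down palmitoylethanolamide and related N-acylethanolamines. It ran from 17.9 to 22.9 CPM in KO and from 27.1 to 31.6 CPM in 9 WT libraries, and WT replicate 5 lay inside the KO range at 21.3 CPM. Naaa fell by a log2 difference of 0.54 ± 0.06 (edgeR adjusted p = 3.49e-05), and by 0.58 ± 0.04 without that library. Idua (chr5:108660331-108684557, plus strand), the lysosomal enzyme that cuts iduronic acid from heparan and dermatan sulphate, ran from 4.83 to 7.49 CPM in KO and from 8.16 to 11.3 CPM in 9 WT libraries. WT replicate 5 was below all 10 KO libraries at 4.53 CPM. Idua fell by 0.73 ± 0.13 (edgeR adjusted p = 0.0148), and by 0.81 ± 0.09 without it. Idua overlaps Dgkq by 9342 bases and Slc26a1 by 5692 bases, both on the opposite strand. Hspb8 (chr5:116408491-116422864, minus strand), a small heat shock protein that directs misfolded proteins to autophagy, ran from 4.87 to 12.7 CPM in KO and from 9.25 to 17.8 CPM in WT. The groups overlapped with WT replicate 5 (9.25 CPM) and also without it, since KO replicate 8 had 12.7 CPM and the lowest of the other WT libraries 12.6 CPM. Hspb8 fell by 0.94 ± 0.17 (edgeR adjusted p = 0.0295), and with the choroid plexus level as a covariate its log2 difference was -0.92 (adjusted p = 0.0951).

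**Figure D2:**
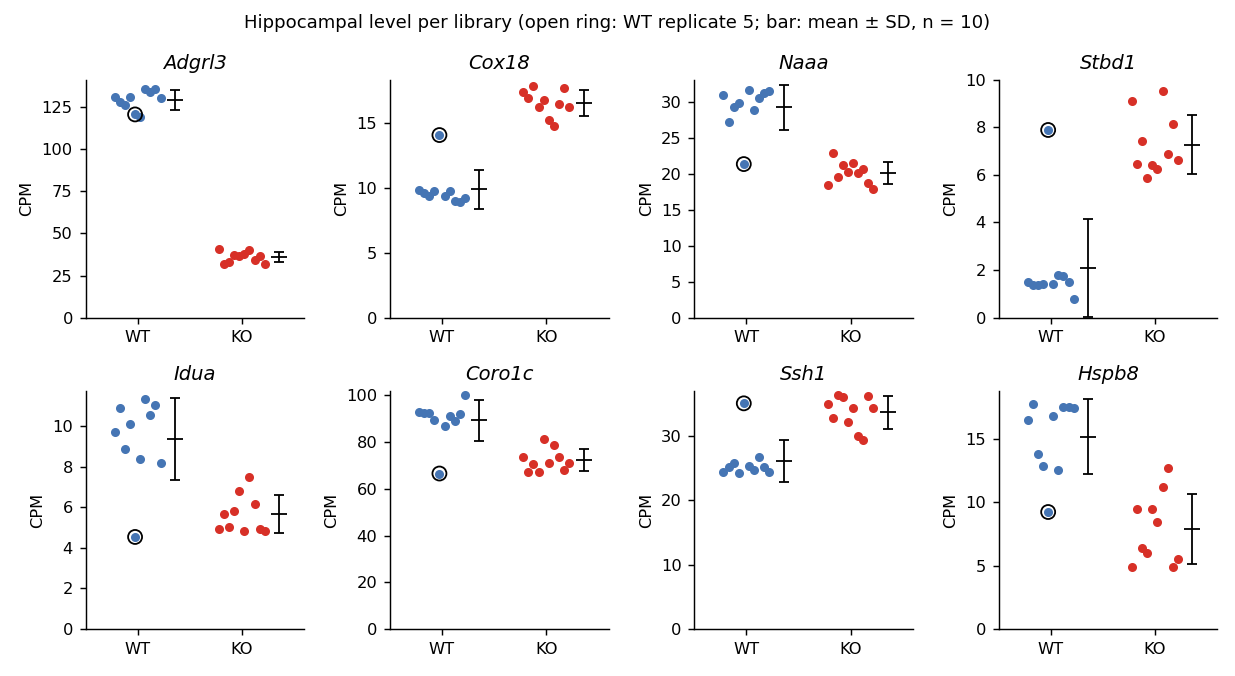
CPM of 8 genes in each hippocampal library, WT in blue and KO in red, with the mean ± SD of each group (n = 10) in black and WT replicate 5 ringed. WT replicate 5 lies with the WT libraries for Adgrl3 (120.8 CPM) and with or near the KO libraries for the other 7, for instance at 7.89 CPM for Stbd1.

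The sequence before the start of 4 of these genes is shown because they had the greatest absolute log2 differences after Adgrl3 among called genes with an entry in the RefSeq table (GRCm38.p6; 17 of the 20 called genes had one). Each run is the 250 bases before the start, 5′ to 3′ on the gene's strand, with matches in capitals to the GC box (GGGCGG), the CCAAT box (CCAAT), the TATA box (TATAAA) or a pair of heat shock units (GAANNTTC), searched on both strands. They lie at chr5:92602801-92603050 (plus strand) for Stbd1, chr5:92278182-92278431 (minus) for Naaa, chr5:108660081-108660330 (plus) for Idua and chr5:116422865-116423114 (minus) for Hspb8.
Stbd1: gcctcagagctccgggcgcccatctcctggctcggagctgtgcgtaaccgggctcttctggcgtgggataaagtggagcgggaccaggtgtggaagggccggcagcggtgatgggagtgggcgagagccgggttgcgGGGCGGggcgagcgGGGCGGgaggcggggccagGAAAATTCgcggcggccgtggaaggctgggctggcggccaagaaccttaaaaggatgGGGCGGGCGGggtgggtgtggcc
Naaa: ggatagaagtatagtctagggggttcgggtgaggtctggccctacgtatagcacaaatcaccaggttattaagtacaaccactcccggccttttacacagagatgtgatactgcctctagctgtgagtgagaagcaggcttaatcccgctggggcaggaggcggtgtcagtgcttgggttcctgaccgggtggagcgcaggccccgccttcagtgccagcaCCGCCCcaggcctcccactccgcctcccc
Idua: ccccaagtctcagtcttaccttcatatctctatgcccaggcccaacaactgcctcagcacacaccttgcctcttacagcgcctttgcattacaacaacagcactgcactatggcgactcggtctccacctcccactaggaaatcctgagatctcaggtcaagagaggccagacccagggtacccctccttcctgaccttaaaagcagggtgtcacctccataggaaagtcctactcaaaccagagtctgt
Hspb8: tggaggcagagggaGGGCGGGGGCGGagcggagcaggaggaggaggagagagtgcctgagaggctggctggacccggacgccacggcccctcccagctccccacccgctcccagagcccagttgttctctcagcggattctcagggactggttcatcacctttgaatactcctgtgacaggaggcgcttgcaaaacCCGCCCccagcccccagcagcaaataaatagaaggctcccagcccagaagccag
Stbd1 had 4 GC box matches, of which the last pair share bases, and 1 match to the heat shock unit pair. Naaa had 1 GC box match, Hspb8 3 and Idua 0. Hspb8 had no match to the heat shock unit pair in these 250 bases. Over 32851 promoters of the same length, 32.7% held a GC box match, 33.8% a CCAAT match, 12.4% a TATAAA match and 6.69% a match to the heat shock unit pair. The GC content was 71.2% for Stbd1, 64.4% for Hspb8, 59.2% for Naaa and 52.8% for Idua.

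Neighbouring genes of the actin cytoskeleton moved in opposite directions. Coro1c (chr5:113842436-113908758, minus strand), a coronin that binds actin filaments, ran from 67.0 to 81.3 CPM in KO and from 86.7 to 100.2 CPM in 9 WT libraries, with WT replicate 5 at 66.5 CPM. Ssh1 (chr5:113937094-113993894, minus strand), the slingshot phosphatase that activates cofilin, ran from 29.3 to 36.3 CPM in KO and from 24.3 to 26.6 CPM in 9 WT libraries, with WT replicate 5 at 35.04 CPM. WT replicate 5 was inside the KO range for Ssh1 and just below all KO libraries for Coro1c. In both genes the other 9 WT libraries did not overlap with KO. Coro1c fell by 0.31 ± 0.05 (edgeR adjusted p = 0.0133) and Ssh1 rose by 0.37 ± 0.06 (0.00675). Without WT replicate 5 the log2 differences were -0.35 ± 0.03 and 0.42 ± 0.04.

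Among genes of ribosomes and translation, Rplp0 and Gcn1l1, which lie 1.53 kb apart, also differed in direction. Rplp0 (chr5:115559467-115563727, plus strand), a protein of the ribosomal stalk, ran from 129.5 to 169.0 CPM in KO and from 175.0 to 197.5 CPM in 9 WT libraries, with WT replicate 5 at 146.9 CPM. It fell by 0.32 ± 0.05 (edgeR adjusted p = 0.0103). Gcn1l1 (chr5:115565254-115622654, plus strand), whose product activates the kinase that slows translation on amino acid shortage, ran from 90.5 to 117.4 CPM in KO and from 84.7 to 93.7 CPM in 9 WT libraries, with WT replicate 5 at 103.6 CPM. It rose by 0.23 ± 0.04 (0.0249), and its groups overlapped with and without that library. Sdad1, needed for the assembly of the large ribosomal subunit, fell by 0.30 ± 0.04 (0.00287) and had 17.05 CPM in WT replicate 5 against 18.7 to 22.6 CPM in the other WT libraries.

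The other called genes of chromosome 5 encode signalling, membrane and matrix proteins. Cdkl2 (chr5:92006074-92043883, minus strand), a cyclin-dependent kinase-like kinase, rose by 0.31 ± 0.04 (edgeR adjusted p = 0.00115). Its KO libraries, 45.0 to 58.5 CPM, lay above all WT libraries, of which replicate 5 was the highest at 44.9 CPM. Paqr3 (chr5:97082329-97111596, minus strand), a Golgi protein that holds Raf kinase, fell by 0.25 ± 0.04 (0.00932), with WT replicate 5 at 29.99 CPM, the other WT libraries at 35.3 to 40.7 CPM and KO at 27.9 to 33.6 CPM. Paqr3 overlaps Bmp2k on the opposite strand by 9539 bases. Anxa3 (chr5:96793339-96845966, plus strand), a membrane-binding annexin, fell by 0.41 ± 0.08 (0.0359). KO replicate 8 was the highest KO library for Anxa3 at 7.11 CPM, inside the WT range of 5.61 to 8.68 CPM, and the other KO libraries had 4.59 to 5.81 CPM. Adamts3 (chr5:89677087-89883334, minus strand), a protease of procollagen and reelin, fell by 0.27 ± 0.04 (0.00314), from 30.3 to 36.7 CPM in WT to 24.6 to 29.8 CPM in KO. WT replicate 5 was among the WT libraries for Adamts3, at 31.4 CPM. Adamts3 ends 0.331 Mb before Cox18.

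**Figure D3:**
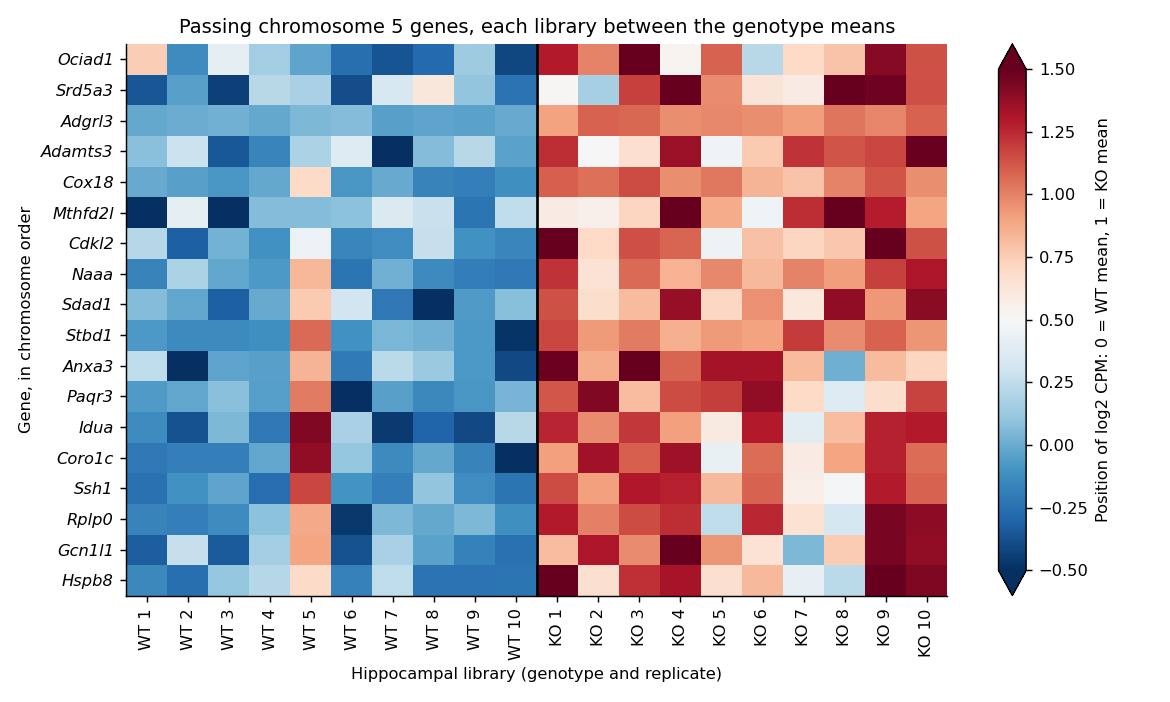
Position of each library (columns) between the WT mean (0, blue) and the KO mean (1, red) of log2 CPM, for the 18 called chromosome 5 genes in chromosome order (rows). WT replicate 5 is blue from Ociad1 to Adamts3 and mostly red from Cox18 to Hspb8, and KO replicates 5, 7 and 8 are paler than the other KO libraries at several genes from Idua onward.

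At Rplp0 and Hspb8, which are far from Adgrl3, KO replicates 5, 7 and 8 had the highest levels among the hippocampal KO libraries, with replicate 2 level with replicate 5 at Hspb8. Rplp0 had 169.0, 154.6 and 166.1 CPM in these libraries and 129.5 to 143.0 CPM in the other 7 KO libraries. Hspb8 had 9.48, 11.2 and 12.7 CPM in them and 4.87 to 9.48 CPM in the others. In the equally numbered prefrontal libraries (scaled over all 60 libraries), Hspb8 had 8.03, 9.04 and 9.66 CPM against 1.90 to 5.04 CPM in the other 7, and in striatum 9.90, 11.8 and 12.4 CPM against 4.81 to 9.98 CPM. Rplp0 had 128.0, 135.4 and 138.2 CPM in those prefrontal libraries against 115.9 to 134.1 CPM, and in striatum 123.1, 128.4 and 145.1 CPM against 103.3 to 126.0 CPM. In both regions KO replicate 5 lay within the range of the other 7 for Rplp0. At Cox18 the same 3 KO libraries had 16.7, 14.8 and 16.5 CPM, well above the 9.80 CPM of the highest WT library other than replicate 5. These 3 libraries were singled out after their values were seen, and no test was made of them.

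Of the 20 called genes, 12 passed in each of the 20 fits that left out 1 library, all on chromosome 5. They were Adgrl3, Adamts3, Cox18, Cdkl2, Naaa, Sdad1, Stbd1, Paqr3, Idua, Coro1c, Ssh1 and Rplp0. Gcn1l1 passed in 11 of the fits, Hspb8 in 10, Anxa3 in 7, Ociad1 in 6, Srd5a3 in 4 and Mthfd2l in 3.

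Off chromosome 5, Krt73 and Rps6kc1 rose. Krt73 (chr15:101793308-101802343, minus strand), a keratin of the hair follicle, ran from 6.79 to 8.95 CPM in KO, with a median of 8.21 CPM, and from 4.54 to 7.26 CPM in WT, with a median of 6.02 CPM. Rps6kc1 (chr1:190700202-190911770, minus strand), a kinase-like protein of endosomes, ran from 45.0 to 49.7 CPM in KO, with a median of 47.4 CPM, and from 41.7 to 46.1 CPM in WT, with a median of 43.7 CPM. The groups overlapped for both genes. The 10 KO libraries of each lay above the WT mean. At every called gene the 10 KO libraries lay on 1 side of that mean, so this is no separate support. The log2 differences were 0.38 ± 0.08 and 0.11 ± 0.02, with an adjusted p of 0.0417 each (edgeR). Each passed in 6 of the 20 fits that left out 1 library, and 10 of those fits called no gene off chromosome 5. With the choroid plexus level as a covariate the log2 differences were 0.37 for Krt73 and 0.10 for Rps6kc1, with an edgeR adjusted p of 0.117 and 0.135. Without WT replicate 5, Krt73 passed (0.0187) and Rps6kc1 did not (0.0631), and the cornified envelope gene Flg passed (0.00256). With all libraries Flg averaged 13.2 ± 1.01 CPM in the KO group and 10.9 ± 1.27 CPM in the WT group (SD, n = 10 per group), a log2 difference of 0.27 ± 0.06 (edgeR adjusted p = 0.0810).

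DESeq2 called 47 genes (0.293% of 16059), among them all 20, with 28 on chromosome 5 and 19 elsewhere. Of those that edgeR did not call, Kit, a receptor tyrosine kinase that lies before Adgrl3, averaged 87.2 ± 9.48 CPM in the KO group and 108.0 ± 10.6 CPM in the WT group (SD, n = 10 per group; log2 difference -0.31 ± 0.06, edgeR adjusted p = 0.0563, DESeq2 0.00127). Scarb2, a lysosomal membrane protein, had a log2 difference of 0.13 ± 0.03 (edgeR 0.0596, and 0.0237 without WT replicate 5). Clock, a core gene of the circadian clock, had 0.10 ± 0.02 (edgeR adjusted p = 0.0757) and Nos1, the neuronal nitric oxide synthase, 0.22 ± 0.05 (0.0915, and 0.0221 without WT replicate 5). These 4 genes are also on chromosome 5.

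The chromosome 5 calls of hippocampus had the same sign in the other regions. Of the 18 chromosome 5 genes, 10 passed in prefrontal cortex, where 0.117% of all genes did, and 6 in striatum, where 0.0514% did (edgeR), and all 18 had the hippocampal sign in both. If equally numbered libraries come from the same mouse, the regions are not independent of each other. Hspb8 had a log2 difference of -1.19 ± 0.25 in prefrontal cortex and -0.46 ± 0.15 in striatum, and Adamts3 one of -0.10 ± 0.04 and -0.23 ± 0.07. Krt73 had 0.05 ± 0.12 and -0.10 ± 0.25, and Rps6kc1 0.07 ± 0.04 and 0.07 ± 0.04, none of which passed. The difference between the hippocampal effect and the mean of the other regions was tested on all 60 libraries. It passed for 0 of 16121 genes (edgeR; 478 genes, 2.97%, had an unadjusted p under 0.05, and voom with the replicate number of a genotype as a block across regions called 0 as well, with 845). Kit had the smallest p in both fits, with an edgeR difference of -0.31 ± 0.07 between hippocampus and the other regions (edgeR adjusted p = 0.257). In the voom fit with that block its adjusted p was 0.0700.

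**Figure D4:**
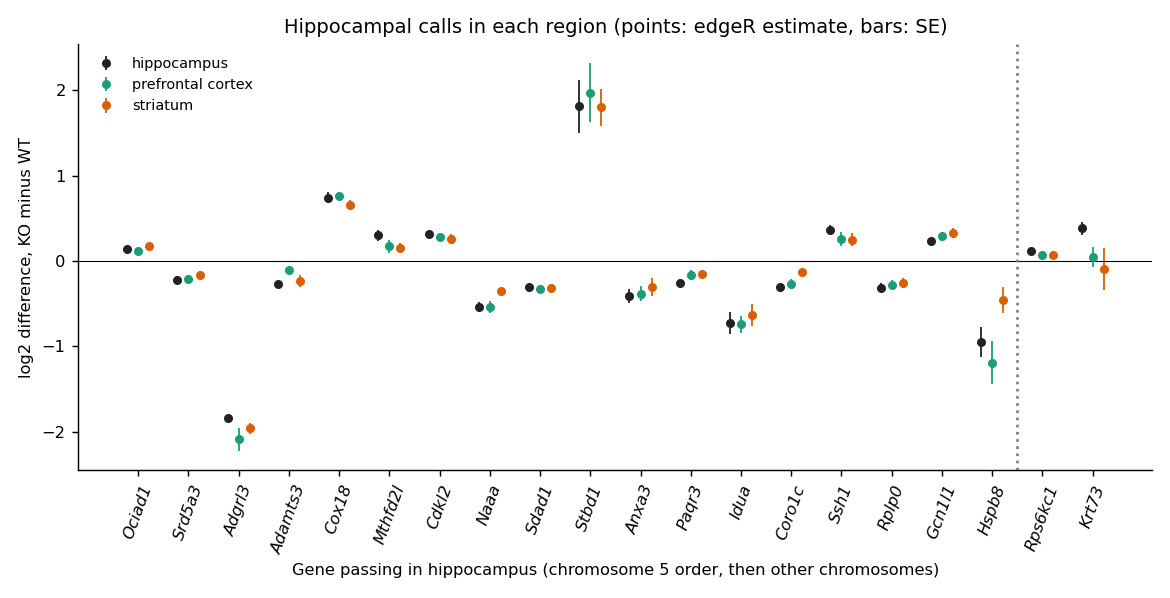
Log2 difference (KO minus WT, edgeR estimate ± SE) of the 20 genes called in hippocampus, in hippocampus (black), prefrontal cortex (green) and striatum (orange). The 18 chromosome 5 genes keep their sign in all 3 regions, while Krt73 is near 0 outside hippocampus.

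The genes around latrophilin-3 in its pathway showed no call in edgeR. The list held 14 genes, of which 0 passed and 0 had an unadjusted p under 0.05 (8.14% of all genes did), and its median log2 difference was 0.03 against 0.00 over all genes tested. The other latrophilins Adgrl1 and Adgrl2 had log2 differences of 0.03 ± 0.02 and -0.02 ± 0.11, and the related endothelial receptor gene Adgrl4 one of -0.11 ± 0.07. Of the ligands, the teneurins Tenm1 to Tenm4 lay between -0.04 and 0.05. The FLRT genes, whose products link latrophilins to Unc5 receptors, had 0.03 ± 0.10 (Flrt1), -0.04 ± 0.05 (Flrt2) and 0.12 ± 0.06 (Flrt3). The Unc5 receptor genes lay between -0.08 (Unc5b) and 0.12 (Unc5d). Adgrl1 averaged 544.5 ± 17.9 CPM in the KO group and 532.4 ± 12.7 CPM in the WT group (SD, n = 10 per group), and Flrt3, with the smallest p of the list, had 43.5 ± 4.86 and 40.2 ± 3.67 CPM.

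Of the 33 gene lists (412 genes), 5 held a gene called by edgeR, 1 each, and all 5 of these genes are on chromosome 5. Over all genes tested, 0.128% passed. The lists were chosen with earlier results of these data known, so these calls are no separate evidence on the pathways. DESeq2 also called the list members Dio2, which activates thyroid hormone in astrocytes (DESeq2 adjusted p = 0.0139), Gpr17, a receptor of oligodendrocyte precursors (0.0301), and Plin4, a lipid droplet protein (0.0484), on other chromosomes, and Scarb2, Clock and Nos1 on chromosome 5. Cox18 was the call among 22 genes of cytochrome oxidase assembly, Stbd1 among 18 of glycogen metabolism, Naaa among 10 of N-acylethanolamine and endocannabinoid metabolism, Idua among 20 lysosomal genes and Hspb8 among 20 of heat shock and endoplasmic reticulum stress. The medians of these lists were 0.00, -0.01, 0.01, -0.03 and 0.07. At an unadjusted p under 0.05, the called gene included, they had 2, 2, 1, 1 and 3 members higher. They had 1, 0, 1, 1 and 1 lower. Of all genes, 4.74% were higher and 3.4% lower at that p. The genes of next smallest p were Coa7, a cytochrome oxidase assembly factor (0.10 ± 0.03), Ugp2, which makes the sugar donor for glycogen (0.09 ± 0.03), Cnr1, the cannabinoid receptor CB1 (0.18 ± 0.05), Scarb2 (0.13 ± 0.03), and the chaperone partner Chordc1 (0.18 ± 0.06). None of these 5 passed in edgeR, with adjusted p between 0.0596 and 0.425.

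Synaptic and activity genes had no call in edgeR. The 22 glutamate receptor subunits, 12 GABA-A receptor subunits, 11 dopamine and noradrenaline genes and 15 immediate early genes had 0 members at an unadjusted p under 0.05, with medians of 0.01, 0.01, 0.02 and 0.06. Of 20 synaptic adhesion genes 2 reached an unadjusted p under 0.05, both higher (4.74% of all genes did so), and the median was 0.02. They were the postsynaptic adhesion genes Lrrtm2, at 0.14 ± 0.04, and Lrfn2, at 0.13 ± 0.06 (edgeR adjusted p of 0.290 and 0.574). Of 10 glucocorticoid-responsive genes 3 were lower at an unadjusted p under 0.05 (3.4% of all genes were), with a median of -0.08, and Plin4 had the smallest p (-1.12 ± 0.28, edgeR adjusted p = 0.249, DESeq2 0.0484). Of 14 clock genes 1 was higher and 2 were lower at that p, with a median of -0.06.

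Markers of the hippocampal fields had no call in edgeR either. Prox1 averaged 108.1 ± 21.2 CPM in the WT group and 105.1 ± 18.2 CPM in the KO group (SD, n = 10 per group), a log2 difference of -0.04 ± 0.11. Of the 12 dentate granule cell markers 3 were lower at an unadjusted p under 0.05, as were 3.4% of all genes, and the median was -0.05. Pdzd2 had -0.28 ± 0.10 and Glis3 -0.24 ± 0.09 (edgeR adjusted p of 0.479 and 0.528). The summed level of the 12 markers ran from 631.8 to 991.4 CPM in WT and from 592.1 to 836.5 CPM in KO. The markers of CA1, CA2 and CA3 pyramidal cells had medians of 0.02, -0.03 and 0.07, excitatory neurons 0.02, inhibitory interneurons 0.02 and adult neurogenesis -0.03. At an unadjusted p under 0.05, 2 of the 14 interneuron markers were higher (4.74% of all genes were). They were Reln and Nos1, both on chromosome 5. Of the 10 neurogenesis markers 1 was lower, Igfbpl1, and the pyramidal and excitatory lists had 0 at that p. Dcx, the gene of migrating young neurons, had -0.09 ± 0.06.

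Lists for other cell types and for tissue beside the hippocampus had no call in edgeR, and choroid plexus and red cell genes had the medians farthest from 0. The 15 choroid plexus markers had a median of -0.64 and 0 calls, with 0 at an unadjusted p under 0.05. Their summed level ran from 201.9 to 4343 CPM in WT (median 2460 CPM) and from 159.7 to 4820 CPM in KO (median 753.1 CPM). The 6 erythrocyte markers had a median of -0.56, and 5 had a negative difference at an unadjusted p under 0.05 (3.4% of all genes did), with summed levels of 286.5 to 687.4 CPM in WT and 259.4 to 439.0 CPM in KO. Oligodendrocyte markers had a median of -0.13 over 14 genes and ependymal markers -0.18 over 11. Astrocyte and microglia markers had 0.02 over 12 genes each, and endothelial markers -0.02 over 12. Precursors of oligodendrocytes had -0.02 over 10, and mural and meningeal markers -0.02 over 15. At an unadjusted p under 0.05, 3 astrocyte markers were higher and 1 lower, and 3 microglia markers were higher. So were 1 oligodendrocyte precursor marker, and 1 endothelial marker was lower. Of all genes, 4.74% were higher and 3.4% lower at that p. Markers of striatum, neocortex and thalamus with habenula had medians of 0.00, -0.06 and -0.05, and the 4 Y-linked genes one of -0.02. With the choroid plexus level as a covariate, 14 genes passed, all on chromosome 5. The part of the red cell markers in the other results was not tested.

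**Figure D5:**
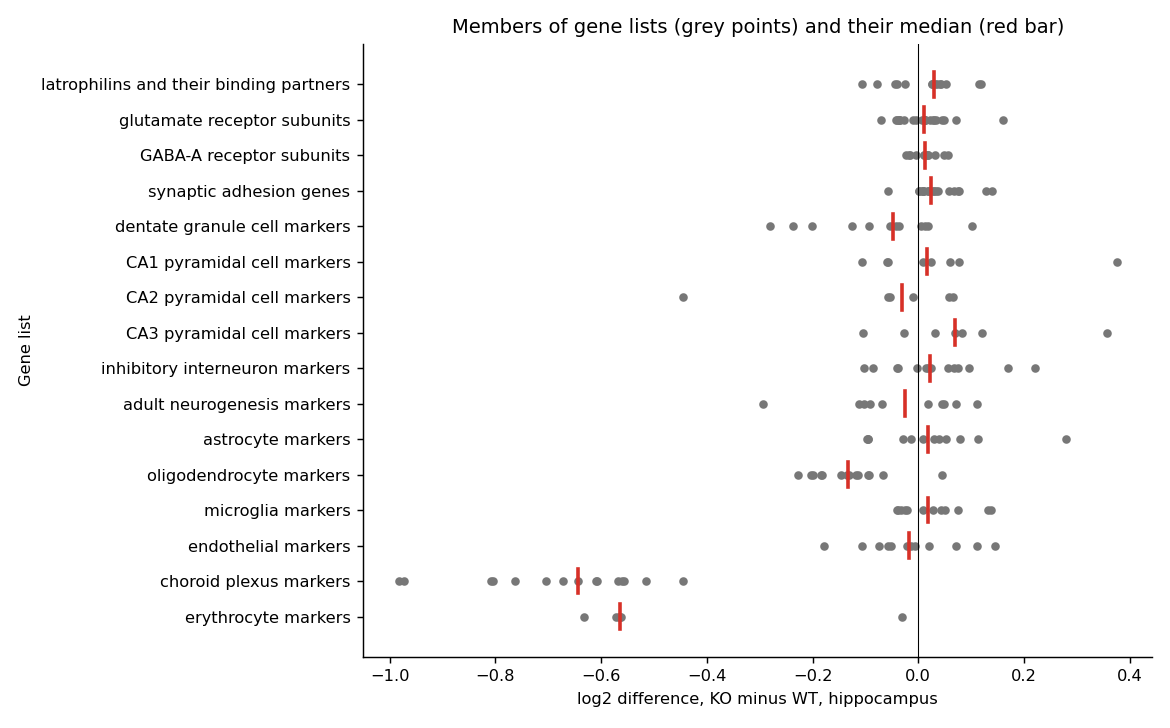
Log2 difference (KO minus WT) of each tested member of 16 gene lists in hippocampus (grey points) and the list's median (red bar). The neuronal lists sit near 0, and the choroid plexus (median -0.64) and erythrocyte (median -0.56) markers lie below it.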

How the data were processed

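RNA of 10 KO and 10 WT hippocampal libraries was compared. The authors deposited raw counts of reads per gene for 21950 protein-coding genes. Per the submitters' processing notes the tools were STAR 2.5.2b, cutadapt 1.16, FastQC 0.11.4, DESeq2 1.16.1 and bedtools, with GRCm38 as the build, and no role or order is given. Nested gene pairs show that reads were counted by strand over the whole gene body and once for each gene they overlap: the outer gene never had fewer reads in 493 pairs on the same strand, and did in 82 of 222 on opposite strands. Overlapping genes on 1 strand therefore share reads.

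Counts were tested with edgeR 4.0.16 (R 4.3.3; filterByExpr, TMM, robust quasi-likelihood F test, Benjamini-Hochberg threshold of 0.05), with genotype as the sole term on the 20 hippocampal libraries. Groups came from the sample titles. Nothing in the labels says that the libraries of a group came from separate mice, so p-values measure the spread between these libraries. No pair of libraries agreed within sampling noise (chi-square per degree of freedom of 8.14 to 48.2 over 90 pairs). The regional contrast used all 60 libraries in 6 groups. A position between genotype means is on log2(CPM + 0.1). The scripts were tested on simulated counts.

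Named genes were Adgrl3, Prox1, all called genes, the 5 of smallest p in each direction off chromosome 5, up to 12 called by DESeq2 alone, the latrophilin list, up to 2 of smallest p per list, tested neighbours of Adgrl3 within 2 Mb, and genes of the regional contrast. From these the text gives those that bear on a comparison. The comparison, the 33 lists (412 genes) and the naming rule were chosen with earlier results of these data known. The description of WT replicate 5 and KO replicates 5, 7 and 8 was added after the values were seen. Alternatives were RLE size factors, other filters, DESeq2 1.42.0, limma 3.58.1 voom, all 60 libraries, covariates, the replicate number as a block, and leaving out each library.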

Additional observations from a re-analysis of the deposited data

Results flagged for a closer look

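In 40 groups of 10 libraries (KO and WT for each of the 20 called genes), 10 held a library whose gap to its nearest neighbour was a greater share of the group's range than Dixon's limit for 10 values. Chance gives about 1 in 20 groups if the groups are independent. These are not, since the same libraries recur at genes of 1 chromosome, so the flags are not separate events. Of the 10, 9 were WT replicate 5 on chromosome 5. Its level was 14.1 CPM for Cox18 (other WT libraries 8.91 to 9.80 CPM), 21.3 CPM for Naaa (27.1 to 31.6), 7.89 CPM for Stbd1 (0.798 to 1.78), 29.99 CPM for Paqr3 (35.3 to 40.7) and 4.53 CPM for Idua (8.16 to 11.3). Further along, it was 66.5 CPM for Coro1c (86.7 to 100.2), 35.04 CPM for Ssh1 (24.3 to 26.6), 146.9 CPM for Rplp0 (175.0 to 197.5) and 103.6 CPM for Gcn1l1 (84.7 to 93.7). Each of these lay toward KO. The other was KO replicate 8 for Anxa3, at 7.11 CPM where the other KO libraries had 4.59 to 5.81 CPM.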

How the results depend on the processing

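The numbers of calls were 20 in all, 18 on chromosome 5 and 2 elsewhere. DESeq2 gave 47, 28 and 19. RLE size factors gave 19, 17 and 2, all among the 20. Voom with quality weights also gave 19, 17 and 2, but 16 of these were among the 20. It did not call Coro1c, Idua, Krt73 and Ociad1, and its calls off chromosome 5 were Lgr4 and Rps6kc1. With no filter on low counts the numbers were 15, 15 and 0, and with 1 CPM in at least 10 libraries 21, 19 and 2. The Y-linked level as a covariate gave 22, 21 and 1, the choroid plexus level 14, 14 and 0, and a fit on all 60 libraries 21, 19 and 2, where those elsewhere were Cyp4f13 and Mllt3. Leaving out each library in turn gave 12 to 26 calls, 12 to 20 on chromosome 5 and 0 to 7 elsewhere. The replicate number as a block left 5 calls, 5 on chromosome 5 and 0 elsewhere. The replicate numbers did not pair KO with WT: deviations of equally numbered libraries correlated between -0.59 and 0.30, over 0.1 in 2 of 10 pairs, and 0 of the 10 KO libraries correlated best with their own number. Over the 19 called genes besides Adgrl3 and these settings, 408 values stayed past the threshold, 143 kept their direction but not the call and 0 reversed. The test of hippocampus against the other regions called 0 genes with RLE size factors, with no filter and with voom. The smallest called difference was 0.11 (Rps6kc1), which passed in 6 of the 20 fits that left out 1 library. The smallest difference that could be detected reliably was not determined. Low genes such as Stbd1 in WT rest on fewer reads.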

Other observations

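WT replicate 5 was also examined over all 15581 genes tested in hippocampus, by counting genes at which its log2 level lay beyond the range of the other 9 WT libraries by more than that whole range. It did so at 10 chromosome 5 genes (1.05% of 949) and 26 genes elsewhere (0.178% of 14632). The other 19 libraries, each set against its own genotype, did so at 0 to 7 chromosome 5 genes (median 2) and at 14 to 129 genes elsewhere (median 38). WT replicate 5 therefore had more such genes on chromosome 5 than any other library, and a number elsewhere inside their range. Its 10 were, in chromosome order, Cox18, Naaa, Stbd1, Paqr3, Rasgef1b, Idua, Coro1c, Ssh1, Rplp0 and Tmem116, and 8 of them are called genes. They begin at chr5:90214724-90224001 (Cox18) and end at chr5:121451893-121524183 (Tmem116).

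At the remaining 2 the library did not simply match KO. Rasgef1b, a Ras exchange factor gene, had 8.79 CPM in WT replicate 5, below both the other WT libraries (13.5 to 19.2 CPM) and the KO libraries (10.1 to 20.7 CPM), and its log2 difference between the genotypes was -0.09 ± 0.14. Tmem116, a membrane protein gene, had 5.68 CPM, above the other WT libraries (3.48 to 4.34 CPM) and just above the highest KO library (5.65 CPM). These genes were named after their values were seen.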
